A study of Mus musculus with 8 samples.

Results

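Bone marrow-derived macrophages, which are grown in culture from mouse bone marrow, were compared by RNA sequencing after inflammasome stimulation. The knockout (KO) cells carried floxed Mettl3 alleles and Lyz2-Cre, and were labelled Lyz2-Cre-Mettl3fl/fl. In them Cre is driven from the Lyz2 gene of myeloid cells. The wild-type (WT) cells, labelled Mettl3fl/fl, carried the same floxed alleles without Cre. Both genotypes received LPS at 50 ng/ml overnight and then nigericin at 10 µM, for 3 h according to the sample labels. The 4 libraries of this comparison, 2 per genotype, were all the stimulated libraries among the 8 of the study. The other 4, again 2 per genotype, came from cells given PBS and served as the unstimulated reference. Because the WT cells lack Cre, the loss of Mettl3 and the presence of Cre cannot be told apart. Nothing in the labels tells whether a group's 2 libraries are from different mice or cultures, so the p-values reflect only how far these libraries spread, and that spread may be technical. The sources used here give no age or sex for the mice.

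METTL3 carries the methyltransferase activity that places N6-methyladenosine (m6A) on messenger RNA, and readers of this mark affect the splicing, translation and decay of the marked transcripts. LPS acts through Toll-like receptor signalling and raises the components and substrates of the inflammasome, while nigericin lets potassium leave the cell, which activates NLRP3, caspase-1 and the pore protein gasdermin D. Macrophages meet the oxidative and amino acid stress of this state with programmes driven by the transcription factors NRF2, which acts on antioxidant genes, and ATF4, which acts on amino acid supply genes.

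Library totals lay between 55032057 and 65487739 counts over the 8 libraries, and the 10 most abundant genes took 11.6 to 17.4% of them. Levels are given as CPM, the count scaled to a common library total after correction by the TMM composition factor, in the order WT library 1, WT library 2, KO library 1, KO library 2. The WT stimulated libraries differed from each other by a median of 0.206 on the log2 scale over genes, and the KO stimulated libraries by 0.148. Stimulated and PBS libraries lay apart on the first principal component (62.5% of the variance) and the genotypes on the second (11%).

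The targeted gene was lower in KO but not absent. Mettl3 (GRCm38 chromosome 14, 52294841 to 52305128, minus strand) measured 28.2, 23.4, 9.08 and 7.87 CPM. Both KO libraries lay below both WT libraries, and the log2 difference was -1.61 ± 0.14 (SE; adjusted p = 0.00283). The table has 1 count per gene, so reads from floxed and other exons cannot be separated. Lyz2 itself, which encodes lysozyme and marks myeloid cells (chromosome 10, 117277331 to 117282321, minus strand), measured 32222, 34422, 15405 and 14744 CPM. Its log2 difference was -1.14 ± 0.06 after stimulation and -0.99 with PBS. Of 28 tested writers, erasers and readers of m6A, 3 were called (10.7%, against 4.92% of all tested genes). Besides Mettl3 these were the reader Igf2bp2 (log2 -1.18 ± 0.15), a call lost without either KO library, and the reader Ythdf2 (log2 0.47 ± 0.08), a call lost without WT library 2, KO library 1 or KO library 2.

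Of 17470 tested genes, 860 were called (4.92%) at an adjusted p under 0.05, with 508 higher (2.91%) and 352 lower (2.01%) in KO. Higher calls made up 59.1% of the total. Scaling by library size alone shifted the median log2 difference over tested genes from -0.0045 to 0.13, and the split became 1044 higher and 236 lower, 81.6% higher. Changes below are relative to the TMM centre, and counts of called list members stand against the 4.92% of all tested genes. The called genes differed by a median of 0.87 log2 in size, with a median standard error of 0.12, and 270 of the higher and 98 of the lower ones passed 2-fold. The libraries of the 2 genotypes did not overlap for 50.2% of all tested genes, so absence of overlap alone says little with 2 libraries a side. The number of calls fell to 505 without WT library 1, 466 without WT library 2, 158 without KO library 1 and 253 without KO library 2. In all 4 of these fits 125 genes (0.716%) were called, 72 of them higher and 53 lower.

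Among the genes that fell most, and that were called in every fit leaving out 1 stimulated library, were enzymes of redox and lipid metabolism. Prdx1, a peroxiredoxin that reduces hydrogen peroxide, measured 3690, 4138, 1409 and 1427 CPM, a log2 difference of -1.46 ± 0.07. Gclm, the modifier subunit of the rate-limiting enzyme of glutathione synthesis, measured 108, 122, 33.9 and 44.1 CPM (log2 -1.56 ± 0.15). The peroxide-degrading enzyme catalase (Cat) measured 434, 460, 206 and 201 CPM (log2 -1.14 ± 0.07). All 3 lay lower in both KO libraries, a separation required of every leading gene and so no further support. Ptgr1, a reductase of prostaglandins and reactive aldehydes, fell by 1.48 log2 units, and Scd2, a fatty acid desaturase, went from 143 and 132 CPM to 42.8 and 47.0 CPM (log2 -1.61 ± 0.08). Cd36, a scavenger receptor for oxidised lipids, measured 378, 377, 151 and 166 CPM (log2 -1.25 ± 0.07), and Fabp7, a fatty acid-binding protein, fell by 1.95 log2 units. The other leading genes that fell were Dnajb4 (an HSP40 co-chaperone, -1.65), Golph3l (a Golgi phosphoprotein, -1.46), Atf5 (a stress transcription factor, -1.37), Ahnak2 (-1.33) and Rnf128 (a ubiquitin ligase, -1.19).

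Zfp180, a zinc finger gene on chromosome 7 (24081924 to 24107713, plus strand), had the largest fall among the leading genes and the opposite difference with PBS. It measured 24.9, 24, 4.99 and 5.48 CPM after stimulation (log2 -2.22 ± 0.17). With PBS the WT libraries had 4.90 and 3.47 CPM and the KO libraries 27.8 and 27.5 CPM (log2 2.72). WT cells thus had the higher level after stimulation and KO cells with PBS, and the difference between both genotype effects was -4.95 (adjusted p = 0.00178).

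The genes that rose most formed a more mixed group of receptors, an immunoglobulin gene, a mitochondrial ribosomal RNA and genes of the extracellular matrix. Calcr, the calcitonin receptor (chromosome 6, 3685680 to 3764714, minus strand), measured 1.67, 2.17, 15.5 and 18.3 CPM (log2 3.13 ± 0.22), and had 0 counts in all 4 PBS libraries. Lrmda, a leucine-rich repeat gene on chromosome 14, measured 1.13, 1.14, 14.9 and 13.3 CPM (log2 3.63 ± 0.23). P2ry13, a receptor for ADP, measured 6.35, 8.04, 33.1 and 32.4 CPM (log2 2.19 ± 0.17). For these 3 genes the KO libraries lay above the WT libraries, as the rule for leading genes requires. Dgat2, the enzyme of the last step of triacylglycerol synthesis, measured 9.51, 9.93, 33.3 and 33.4 CPM (log2 1.78 ± 0.17). Adgre4, an adhesion receptor related to F4/80, rose by 2.07 log2 units, Ppm1n, a phosphatase, by 2.29, and Igfbp5, a binding protein of insulin-like growth factors, by 1.75. Il4i1, a secreted amino acid oxidase, was singled out after its values were seen, since its mean stayed under the 10 CPM required of leading genes. It measured 1.58, 1.14, 9.95 and 7.53 CPM (log2 2.68 ± 0.26).

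**Figure D1:**
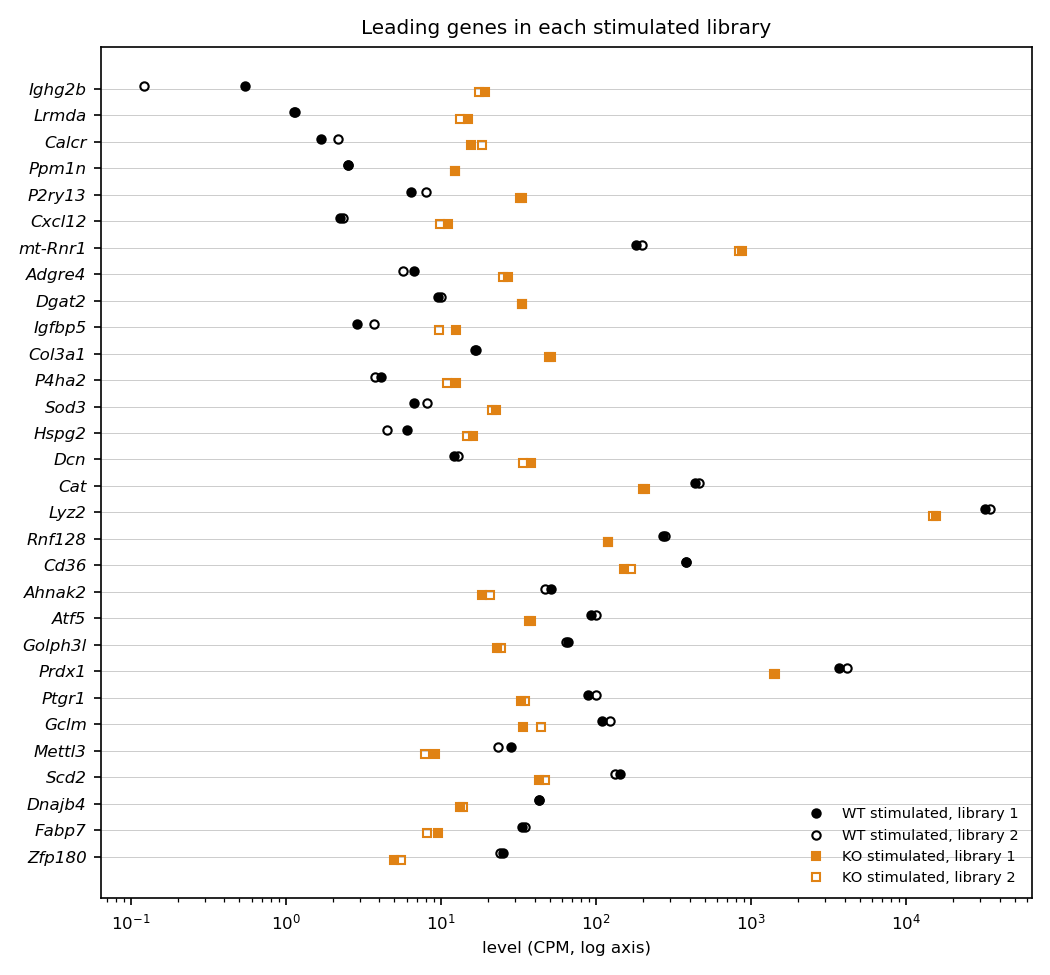
Level of each leading gene (rows) in the 4 stimulated libraries (horizontal, CPM on a log axis), with WT as black circles and KO as orange squares, library 1 filled and library 2 open. The 2 libraries of a genotype lie close together relative to the gap between genotypes, and the genes were chosen for such separation. Calcr has 1.67 and 2.17 CPM in WT against 15.5 and 18.3 CPM in KO.

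NRF2 and antioxidant genes had more lower than higher members. Of 29 tested members edgeR called 11 lower and none higher, DESeq2 15 lower and 1 higher, and edgeR with library size alone 11 lower and 1 higher, and the list median was -0.46 log2 against -0.0045 over all tested genes. Stretches of 4 called members' promoters are shown because they hold the core of the antioxidant response element, the sequence NRF2 binds with a small MAF partner. Capitals mark the 9 letters that match TGACNNNGC on either strand, and each stretch is read 5′ to 3′ along the gene from RefSeq on GRCm38.p6.
Gclm (chr3:122245393-122245461, plus strand): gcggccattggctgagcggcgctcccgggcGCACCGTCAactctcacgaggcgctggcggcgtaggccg
Gsta3 (chr1:21240434-21240502, plus strand): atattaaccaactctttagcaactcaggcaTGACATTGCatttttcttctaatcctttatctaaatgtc
Prdx1 (chr4:116685436-116685504, plus strand): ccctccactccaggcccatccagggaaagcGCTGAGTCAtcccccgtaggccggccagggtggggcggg
G6pdx (chrX:74428899-74428967, minus strand): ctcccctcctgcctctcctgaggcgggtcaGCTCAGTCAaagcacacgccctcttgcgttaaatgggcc

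The capitals of Prdx1 also contain the AP-1 motif TGANTCA. The promoter window ran from 250 bases before to 50 bases after the start, and 10 of the 11 called members were matched. The 9-letter core was found in 6 of these 10, which besides the 4 shown were Me1 and Srxn1. It was found in 14.9% of the 11115 matched promoters of tested genes, in 21.3% of those called lower and in 17.0% of those called higher. A match is a description of letters, not of binding. Since the list gathers NRF2 genes, such matches are likely in it whatever the genotype difference, and its uncalled members were not counted for comparison.

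The called members of this group span several steps of antioxidant defence. Hmox1, which degrades heme and is a classical NRF2 target, measured 2729, 2982, 1358 and 1354 CPM (log2 -1.07 ± 0.07). Srxn1, which restores oxidised peroxiredoxins, measured 202, 201, 95.9 and 92.7 CPM (log2 -1.09 ± 0.10). With Prdx1, Gclm, Cat and Taldo1 (a pentose phosphate enzyme, -0.70), these were the 6 members called in every fit leaving out 1 library. Me1 (malic enzyme, -1.07) lost its call without KO library 1, and the NADPH-producing enzyme G6pdx (-0.45), thioredoxin reductase Txnrd1 (-0.71) and the glutathione transferases Gstm1 (-1.05) and Gsta3 (-1.35) lost theirs without at least 3 of the 4 libraries in turn. Nfe2l2, which encodes NRF2, had a difference of 0.21 ± 0.06 (adjusted p = 0.0885) and Keap1, its inhibitor, of -0.07 ± 0.08 (adjusted p = 0.719). Nqo1 (-0.78, adjusted p = 0.0987) and the cystine transporter Slc7a11 (-1.02, adjusted p = 0.212) did not pass. Akr1b8, an aldehyde reductase outside the list that was chosen after its values were seen, measured 25.3, 26.1, 12.5 and 12.5 CPM (log2 -1.04 ± 0.08). With PBS none of the 29 members was called by edgeR, DESeq2 or limma-voom, 6 having an unadjusted p under 0.05, against 1.55% of all genes called, and for 5 the genotype effect differed between stimulated and PBS cells. With PBS Prdx1 measured 1198 and 1236 CPM in WT against 1288 and 1330 CPM in KO, and the difference between its genotype effects was -1.57 (adjusted p = 0.00293).

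Genes of amino acid supply and tRNA charging that ATF4 controls were lower as well, though fewer of these calls held without single libraries. Of 32 tested members 12 were lower and none higher, with a median of -0.65 log2. Between 2 and 8 members were called lower when 1 stimulated library was left out, and only Atf5 was called in all 4 such fits. DESeq2 called 20 members lower. Promoter stretches of 4 called members are shown for the core TGATGNAA of the ATF4 composite site, again in capitals on either strand and from the same source.
Asns (chr6:7693210-7693262, minus strand): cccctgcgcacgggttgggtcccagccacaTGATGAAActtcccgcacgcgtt
Pck2 (chr14:55540133-55540200, plus strand): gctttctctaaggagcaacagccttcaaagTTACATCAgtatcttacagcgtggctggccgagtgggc
Aars (chr8:111033700-111033767, plus strand): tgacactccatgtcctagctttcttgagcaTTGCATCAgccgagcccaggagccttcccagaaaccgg
Gars (chr6:55037941-55038000, plus strand): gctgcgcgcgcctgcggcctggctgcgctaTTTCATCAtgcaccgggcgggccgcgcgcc

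Of the 10 called members with a matched promoter, 5 held this core, the fifth being Trib3. The core was found in 2.40% of all matched promoters, 5.22% of those called lower and 2.16% of those called higher. Since the list gathers genes that ATF4 controls, such sites are likely in it whatever the genotype difference. Its uncalled members were not counted for comparison. Asns, which makes asparagine, measured 80.2, 87.0, 27.9 and 30.7 CPM (log2 -1.51 ± 0.17), and its call was lost without KO library 1. Atf5 measured 92.7, 100, 37.8 and 36.7 CPM. The pseudokinase Trib3 (-1.85), the amino acid transporter subunit Slc7a5 (-1.22) and the mitochondrial enzyme Pck2 (-0.82) were called with all 4 libraries and with no 3 of them. Ddit3, the transcription factor CHOP, measured 71.2, 76.0, 40.8 and 38.7 CPM (log2 -0.89 ± 0.10), and Sesn2, a stress sensor, fell by 1.03 log2 units; both calls were lost without either KO library. The alanyl-, asparaginyl-, glycyl- and seryl-tRNA synthetase genes Aars (-0.66), Nars (-0.64), Gars (-0.54) and Sars (-0.41) were lower. Atf4 itself had a difference of -1.10 ± 0.32 that did not pass (adjusted p = 0.112). With PBS edgeR called none of the 32 members (5 had an unadjusted p under 0.05) and DESeq2 called 3. The difference between the genotype effects passed for 3 members, Atf5 (-1.10), Nars (-0.66) and Pck2 (-1.36).

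Transcripts of the mitochondrial genome split by kind. Of 13 tested mitochondrial mRNAs, which encode subunits of the respiratory chain and ATP synthase, 6 were lower and none higher (median -0.86 log2), while both ribosomal RNA genes were higher. mt-Rnr1 measured 181, 198, 867 and 832 CPM (log2 2.16 ± 0.08) and mt-Rnr2 measured 362, 385, 927 and 897 CPM (log2 1.29 ± 0.09). Both rRNAs were called in every fit leaving out 1 library, and neither was called with PBS, where mt-Rnr1 had 263 and 297 CPM in WT and 303 and 313 CPM in KO. Among the mRNAs, mt-Cytb of complex III measured 1731, 1928, 967 and 926 CPM (log2 -0.95 ± 0.07), and the complex I subunit mt-Nd5 measured 1504, 1477, 877 and 803 CPM (log2 -0.83 ± 0.06). mt-Nd6 (-0.86) and mt-Nd2 (-0.81) were called in every such fit too, whereas mt-Nd4 (-0.88) lost its call without WT library 2 and mt-Nd1 (-0.61) without WT library 2 or either KO library. The uncalled mt-Co2, mt-Co3, mt-Atp8 and mt-Atp6 differed strongly between libraries of 1 genotype. mt-Co3, a cytochrome oxidase subunit, measured 2291, 2384, 1996 and 941 CPM, and mt-Atp6 577, 2955, 547 and 249 CPM, so that KO library 2 lay below all others for both. Of 22 tested mitochondrial tRNA genes 4 were higher, mt-Ta, mt-Tn, mt-Tc and mt-Ty (log2 1.33 to 1.44); each lost its call without at least 3 of the 4 libraries in turn, and each lay under 8 CPM in every stimulated library. The neighbouring mitochondrial genes are read from shared precursors on both strands, and whether the counts kept strand is not given in the sources used here, so reads of overlapping or antisense genes such as mt-Nd6 cannot be assigned with certainty. The mitochondrial share of all counts was 2.58 and 2.87% in WT and 2.36 and 1.84% in KO. None of 43 tested nuclear genes of the respiratory chain was called by edgeR, DESeq2 or limma-voom (median -0.05 log2, range -0.39 to 0.32), and 5 had an unadjusted p under 0.05. Of the nuclear and small non-coding RNAs listed as signs of RNA quality, all 9 tested lay below 0 without a call by edgeR (median -0.42 log2, range -2.07 to -0.13), 2 of them with an unadjusted p under 0.05 and 1 called lower by DESeq2; their part in the mitochondrial result was not tested. The named mitochondrial RNAs outside the mRNA list were chosen after their values were seen.

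**Figure D2:**
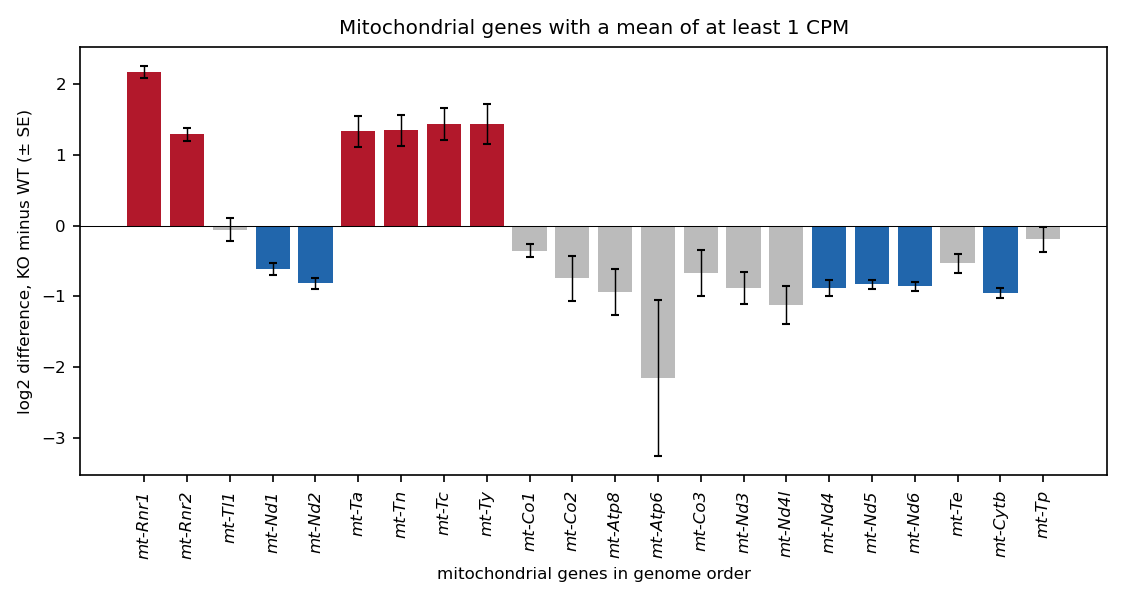
Log2 difference between KO and WT after stimulation (vertical, bars with standard error) for mitochondrial genes averaging 1 CPM or more, in genome order, with calls in red (higher) and blue (lower) and uncalled genes in grey. mt-Rnr1 at 2.16 and mt-Rnr2 at 1.29 stand above 0, while all 13 mRNAs stand below it, 6 of them called.

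Genes of collagens and other matrix proteins were higher in KO. Of 21 tested members 20 were higher and none lower, with a median of 1.26 log2 and a narrow range of 1.02 to 1.60, and 13 of them were called in every fit leaving out 1 library. Col3a1, a fibrillar collagen chain, measured 16.9, 16.6, 51.0 and 49.9 CPM (log2 1.59 ± 0.09). Col1a1 measured 45.7, 44.4, 119 and 108 CPM (log2 1.33 ± 0.09), and Dcn, the proteoglycan decorin, 12.1, 12.8, 37.7 and 33.8 CPM (log2 1.52 ± 0.10). In each of these the KO libraries were well above both WT libraries. The leading genes P4ha2 (collagen prolyl hydroxylase, 1.58), Hspg2 (perlecan, 1.56) and Sod3 (extracellular superoxide dismutase, 1.58), which are outside the list, rose to a like degree.

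Markers of fibroblasts and stroma rose with the matrix genes. Of 12 tested markers 10 were higher and none lower (median 1.40 log2), with the uncalled pair Lum at 1.43 and Fap at 0.02, and 7 of the 12 are also on the matrix list. Cxcl12, a stromal chemokine, measured 2.24, 2.34, 11 and 9.82 CPM (log2 2.18 ± 0.15), and the receptor gene Pdgfrb 11.5, 10.2, 28.8 and 26.6 CPM (log2 1.36 ± 0.11). The summed level of the 13 markers was 175 to 176 CPM in WT and 435 to 492 CPM in KO after stimulation, and 267 to 296 CPM in WT and 418 to 440 CPM in KO with PBS. No marker was at 0 in all stimulated libraries. The part of these cells in the matrix result was not tested, and in bulk samples more cells of a type and more RNA per cell cannot be told apart. With PBS edgeR called 7 of the 21 matrix genes, all higher (median 0.66 log2), and DESeq2 called 17 higher and 1 lower. Among the named matrix and stromal genes, the difference between the genotype effects passed for Col3a1 (0.93), Cxcl12 (1.45) and P4ha2 (1.27).

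Other marker lists were read for cells that a bone marrow culture could hold. B and plasma cell genes had 5 of 9 tested members higher and none lower. Their summed levels after stimulation were 12.1 to 15 CPM in WT and 61.8 to 69.5 CPM in KO. With PBS the sums lay closer, at 55.8 to 56.1 CPM in WT and 73.6 to 80.5 CPM in KO. Ighg2b, an immunoglobulin heavy chain gene on chromosome 12, measured 0.546, 0.120, 19.1 and 17.4 CPM, and with PBS 0, 0, 18.5 and 17.6 CPM, so it was high in all 4 KO libraries. Jchain (log2 2.72) and the light chain gene Igkc (2.25) were higher too. The first call was lost without either KO library and the second without WT library 1 or KO library 1. The heavy chain gene Ighm was higher after stimulation (log2 0.99 ± 0.19), a call lost without WT library 1 or either KO library. With PBS Ighm lay the other way without a call by edgeR (log2 -0.71). It measured 51.55 and 52.97 CPM in WT against 28.16 and 35.77 CPM in KO. Cd79a had 0 counts in WT and 54 in KO, which is at least 16.8-fold higher against a floor of 3 counts over the group, a call lost in every fit leaving out 1 library. Macrophage markers summed to 51254 to 53993 CPM in WT and 30916 to 32088 CPM in KO. Lyz2, the gene of the Cre driver, made up 57.5% of this sum, and the other 9 markers summed to 19032 to 19571 CPM in WT and 16173 to 16684 CPM in KO. The list had 3 of 10 lower, Lyz2, Adgre1 (F4/80, -0.46) and Mpeg1 (perforin-2, -0.40). The calls of Adgre1 and Mpeg1 were lost without either KO library. The other 7 did not pass with edgeR, among them Cd68 (-0.33 ± 0.08), Mertk (-0.39 ± 0.11), Csf1r (0.16 ± 0.06) and Spi1 (-0.03 ± 0.08). Of all 10 markers 8 had a negative difference (median -0.26 log2), and DESeq2 called 5 lower and none higher. Neutrophil markers summed to 277 to 287 CPM in WT and 356 CPM in both KO libraries, with Elane, Ly6g and Retnlg at 0. Csf3r, a cytokine receptor gene (246, 249, 320 and 324 CPM), made up 89.2% of this sum and was the single member of 8 tested that was called, a call lost in every fit leaving out 1 library, while the other 11 summed to 31.0 to 37.8 CPM in WT and 32.4 to 36.0 CPM in KO. Among dendritic cell markers the integrin gene Itgax (239, 234, 136 and 142 CPM) made up 97.5% of the summed level and was the single member called, lower in KO. The other 9 summed to 2.22 to 2.71 CPM in WT and 6.89 to 7.15 CPM in KO, with Cd209a and Flt3 at 0, and 5 of the 7 tested markers had a positive difference (median 1.30 log2). Of 12 T and NK cell markers 8 were at 0 in all stimulated libraries. The Y-linked gene Eif2s3y was higher in KO both after stimulation (25.1, 25.4, 47.2 and 47.9 CPM) and with PBS (log2 0.91 and 0.89), while the Y-linked Ddx3y, Uty and Kdm5d were detected in every library and not called.

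MHC class II, endoplasmic reticulum chaperone and mitotic genes also had more higher than lower members. Of 16 tested MHC class II genes 5 were higher and 2 lower (median 0.56 log2). H2-Aa, an MHC class II chain, measured 179, 213, 354 and 359 CPM (log2 0.86 ± 0.11), and H2-Ab1, H2-Eb1, the invariant chain gene Cd74 and the transcription factor gene Rfx5 rose by 0.97, 1.18, 0.74 and 0.68 log2 units. The thiol reductase gene Ifi30 (-0.64) and cathepsin S (Ctss, -0.41) were lower. With PBS 6 members were higher and none lower, and no member had a passing difference between the states. Of 23 tested MHC class I presentation genes none was higher and 1 lower (4.35%), H2-T23 (-0.37). That call was lost without WT library 2 or either KO library. Of 21 cytosolic heat shock genes Dnajb4 alone was called (4.76%), lower in KO. Both shares lay near the 4.92% of all tested genes. Of 24 endoplasmic reticulum chaperone genes 8 were higher and none lower (median 0.27 log2), for example the disulfide isomerase gene Pdia4 (86.5, 97.8, 165 and 164 CPM) and calreticulin, Calr (1061, 1138, 1522 and 1517 CPM). Of 37 tested G2 and mitosis genes 10 were higher and none lower, with a median of 0.95 log2 at low levels; Top2a, topoisomerase II alpha, measured 9.68, 7.81, 16.4 and 16.9 CPM, and Mki67 did not pass (0.86, adjusted p = 0.097). No call in these 3 lists held in every fit leaving out 1 library. The higher calls ranged over those fits from 0 to 5 for MHC class II, from 0 to 9 for the chaperones and from 0 to 6 for G2 and mitosis. For G2 and mitosis, 15 members were higher with library size alone, 19 with DESeq2, 5 with limma-voom and 0 with only the 4 stimulated libraries fitted.

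Genes of lipid uptake, lysosomes and iron handling had more lower than higher members. Of 25 tested lipid uptake, binding and efflux genes 6 were lower and 2 higher. Gpnmb, a glycoprotein of lipid-loaded macrophages, measured 7581, 7813, 4664 and 4791 CPM (log2 -0.70 ± 0.06), and Lipa, the lysosomal acid lipase, 651, 658, 388 and 393 CPM (log2 -0.74 ± 0.08), a call lost without KO library 1. Of 40 lysosome and cathepsin genes 7 were lower, among them the sphingolipid activator precursor Psap (-0.57) and the protease Lgmn (-0.49), and 2 higher, among them Ctsk, cathepsin K, at 16.1, 17.6, 42.5 and 40.9 CPM (log2 1.31 ± 0.09). Ctsk was also higher with PBS (1.53). Of 19 iron and heme genes 6 were lower, including Hmox1, the biliverdin reductase Blvrb (-0.75), and the heme transporter Slc48a1 (-0.68), and 1 was higher, the ferritin autophagy receptor Ncoa4 (88.9, 75.1, 206 and 187 CPM). Among the iron and heme calls, Hmox1 alone held in every fit leaving out 1 library, and among the lysosome calls Ctsk alone. Of 30 autophagy genes 5 were lower and none higher. Sqstm1, the autophagy receptor p62, measured 1776, 1834, 854 and 821 CPM (log2 -1.11 ± 0.08) and was the 1 autophagy call that held in every fit leaving out 1 library.

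Calls among genes of the inflammasome and of the inflammatory response depended on the tool. Of 27 tested inflammasome and pyroptosis genes edgeR called 2 (7.41%, against 4.92% of all genes), DESeq2 5 and limma-voom 6. In the edgeR fit 1 was higher, the pyrin gene Mefv (0.53), and 1 lower, the channel gene Panx1 (-0.75); Mefv lost its call in every fit leaving out 1 library and Panx1 in 3 of 4. The sensor Nlrp3 measured 132, 105, 122 and 115 CPM, a log2 difference of 0.00 ± 0.12, and the nucleic acid sensor Zbp1 (chromosome 2) measured 422, 442, 485 and 481 CPM (0.16 ± 0.16, adjusted p = 0.642). For both, the genotypes differed by no more than about their standard error. Il1b, the precursor of interleukin-1 beta, measured 1076, 1030, 1594 and 1398 CPM (0.51 ± 0.12, adjusted p = 0.0591), and Casp1, which cleaves it, 164, 180, 122 and 130 CPM (-0.45 ± 0.10, adjusted p = 0.0507). The groups do not overlap for either gene, as for 50.2% of all tested genes, and neither gene passed with edgeR. Both passed with DESeq2 (adjusted p = 0.0024 for Il1b and 0.0036 for Casp1) and with limma-voom (adjusted p = 0.0168 and 0.0369). The gasdermin gene Gsdmd had a difference of -0.08 ± 0.07, the adaptor Pycard 0.32 ± 0.13, Casp8 0.38 ± 0.10 and Ripk1 0.23 ± 0.07. Ripk3 had 0.29 ± 0.14, Mlkl -0.35 ± 0.11 and Casp4 0.02 ± 0.08. The cytokine gene Il18 had 0.61 ± 0.17 (adjusted p = 0.109 with edgeR), Il1a 0.05 ± 0.19 and Nek7 -0.28 ± 0.13. None from Gsdmd to Nek7 was called by edgeR or limma-voom, and DESeq2 called Casp8 alone among them (adjusted p = 0.0213). Of 69 tested interferon-stimulated genes edgeR called 2 higher and none lower (2.90%; median -0.11 log2), DESeq2 3 higher and none lower, and limma-voom 4 higher and 3 lower. The edgeR calls were Isg15 (606, 708, 1028 and 1050 CPM) and the DNA-sensor family gene Ifi208 (0.782, 0.998, 63.3 and 65.3 CPM). Isg15 lost its call in every fit leaving out 1 library and Ifi208 without WT library 1; Ifi208 has close paralogs whose reads the counting may have split. None of 26 NF-kB genes, 28 double-stranded RNA sensing genes, 18 interferon genes and receptors or 52 cytosolic ribosomal protein genes was called by edgeR, while 9, 4, 5 and 8 of them had an unadjusted p under 0.05. DESeq2 called 4, 0, 1 and 2 of these genes and limma-voom 3, 0, 2 and 1, and with library size alone 4 NF-kB genes and 1 interferon gene were called higher.

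Among secreted factors, edgeR called 3 of 23 tested cytokines (13%), Ebi3, Lif and Csf1, all higher, and DESeq2 and limma-voom called 6 and 7. Of 24 tested chemokines 4 were higher and none lower (16.7%), namely Cxcl5 (log2 3.18), Cxcl12, Ccl7 (0.95) and Ccl9. Cxcl5 and Ccl7 lost their calls without either WT library or KO library 1. Ccl9 measured 493, 558, 893 and 911 CPM (log2 0.78 ± 0.07). Complement C3 measured 1914, 1722, 3168 and 3154 CPM (log2 0.80 ± 0.06) and was higher with PBS by 1.67. The cation channel genes Tmem176a (20.4, 21.6, 55.8 and 53.9 CPM) and Tmem176b (34.6, 41.3, 108 and 110 CPM) and the adenosine receptor Adora2a (log2 0.79 ± 0.07) rose, as part of the 5 higher and 2 lower of 32 purine receptor and potassium genes. Nos2, the inducible nitric oxide synthase, measured 148, 138, 70.0 and 65.5 CPM (log2 -1.08 ± 0.09) with 0 counts in all PBS libraries, a call lost without either KO library. Ass1, which resupplies arginine from citrulline, measured 304, 319, 159 and 157 CPM (log2 -0.98 ± 0.08). Tgfbi, a secreted matrix protein of macrophages, measured 4424, 4750, 2168 and 2202 CPM (log2 -1.07 ± 0.08).

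**Figure D3:**
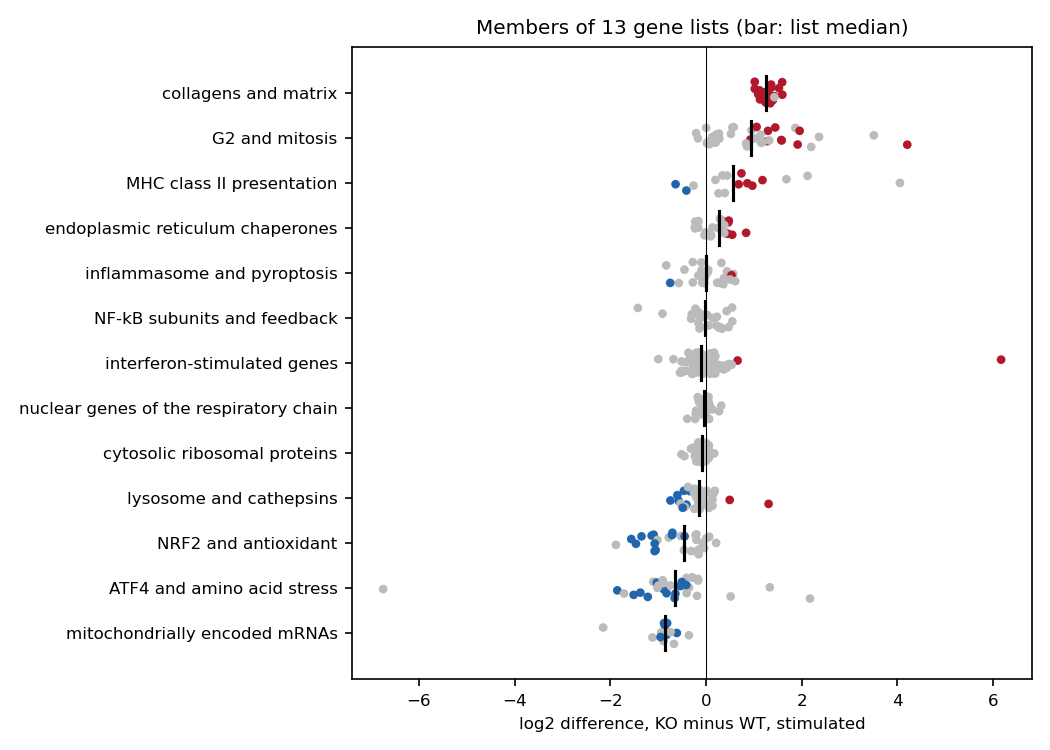
Log2 difference between KO and WT after stimulation (horizontal) of each tested member of 13 gene lists (rows), with members called higher in red, called lower in blue and uncalled in grey, and the list median as a black bar. The matrix genes lie between 1.02 and 1.60, while the interferon-stimulated genes have a median of -0.11 with Ifi208 alone at 6.17.

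With PBS the same genotypes differed at 271 genes (1.55%), 209 higher (1.20%) and 62 lower (0.355%). Of these, 129 were called in the same direction after stimulation, 96 higher and 33 lower, which is 47.6% of the PBS calls and 15% of the stimulated calls. Golph3l (65.6, 63.6, 22.7 and 24.2 CPM after stimulation; log2 -1.46, and -1.31 with PBS) and Lrmda (3.63 and 2.89) were examples of genes called in both. A further 8 genes were called in opposite directions: Zfp180, Ass1, Marco, Alas1, Clec4n, Itgb2, Setd6 and the predicted gene Gm12435. The scavenger receptor gene Marco measured 732, 740, 582 and 551 CPM after stimulation (log2 -0.38), a call lost without WT library 2 or either KO library, and 3.79, 3.65, 12.4 and 12 CPM with PBS (log2 1.71). Ass1 was 2.85, 3.25, 6.66 and 7.03 CPM with PBS. The test of the difference between the genotype effects called 87 genes (0.498%), 18 with a higher (0.103%) and 69 with a lower (0.395%) effect after stimulation. The members of this set that are named here include 5 NRF2 genes, 4 mitochondrial mRNAs and both mitochondrial rRNAs. A gene called in 1 state and outside these 87 has no passing difference between the states.

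**Figure D4:**
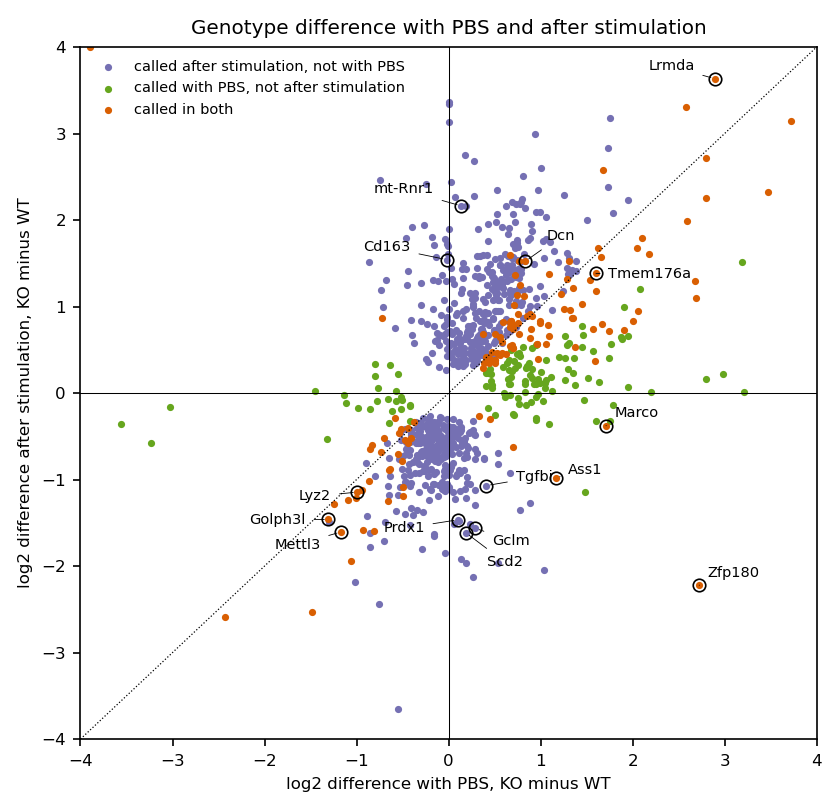
Log2 difference between KO and WT with PBS (horizontal) and after stimulation (vertical) for the 994 genes called in either state, coloured by where the call was made; 61 of them lie outside the axes, which end at 4. Lyz2, Golph3l and Mettl3 lie near the diagonal, Prdx1, Gclm and Scd2 near 0 on the PBS axis, and Zfp180 at 2.72 and -2.22.

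The called genes were spread over the genome. Between 2.97% (chromosome 16) and 6.42% (chromosome 6) of tested genes were called on the autosomes, 3.50% on chromosome X, 1 of 12 on chromosome Y and 12 of 37 (32.4%) in the mitochondrial genome. Within 5 Mb of Mettl3 7 of 147 tested genes were called (4.76%), including Mettl3 itself, Pck2, Mmp14 and Lgals3. Within 5 Mb of Lyz2 2 of 57 were called (3.51%), Lyz2 itself and Msrb3. The share over all genes was 4.92%, and each window counts its own targeted or driver gene. The letters GGACT, a frequent form of the m6A consensus, occurred at a median of 1.14 per kb in the longest transcripts of protein-coding genes called higher, 1.05 in those called lower and 1.04 in all tested ones. This count is of letters, and no methylation was measured in these libraries.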

How the data were processed

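Per the labels' protocols, Trizol-extracted RNA went into a commercial library kit. The submitters' processing notes list Bowtie2, Trimmomatic and edgeR, with mm10 as the genome. How reads were counted, with which annotation and whether by strand, is not given in the sources used here. Raw counts were deposited for 55401 genes, of which 55141 matched a symbol in GENCODE M21 (GRCm38). The filter filterByExpr (minimum count 10, minimum total 15) kept 17470. All 8 libraries were fitted with 1 coefficient per group (4 residual degrees of freedom), TMM factors and edgeR 4.0.16 quasi-likelihood F tests in R 4.3.3, with Benjamini-Hochberg adjustment over all tested genes at 0.05. Standard errors are the absolute log2 difference, taken without the prior count, over the root of F. The log2 differences given include the prior count. On simulated counts for 17470 genes, 55% of 2-fold and 82% of 4-fold changes after stimulation were recovered, and 11 unchanged genes were called. The changed genes were drawn only from those with a mean above 1 CPM, so recovery at lower levels was not measured. Alternatives were DESeq2 1.42.0, limma-voom (limma 3.58.1), other scalings and filters, a replicate block, fewer groups and leaving out each library.

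The genes named are the study's own genes of interest, the 15 largest rises and 15 largest falls among calls with 10 CPM or more in the higher group, no overlap, a call in all 4 fits without 1 stimulated library and a symbol that is no predicted gene, up to 4 called members per pathway list, and called markers. Others were chosen after their values were seen, including further members given to complete a list. The comparison, its 47 pathway and 11 marker lists and the rule were chosen with earlier results of these data known. Promoters came from RefSeq (GRCm38.p6), matching 11115 tested genes.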

Additional observations from a re-analysis of the deposited data

Results flagged for a closer look

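The test of the difference between the genotype effect after stimulation and with PBS called 87 genes at an adjusted p under 0.05 (edgeR quasi-likelihood, interaction term). Values here are that difference on the log2 scale, stimulated minus PBS. Among the genes named in the report or by its rule, it was negative for the NRF2 and redox genes Gclm (-1.85), Prdx1 (-1.57), Ptgr1 (-1.59), Akr1b8 (-1.25), Cat (-1.10), Srxn1 (-1.06) and Hmox1 (-0.998), and for Blvrb (-0.92). It was negative for the amino acid stress genes Atf5 (-1.10), Nars (-0.66) and Pck2 (-1.36), for the chaperone gene Dnajb4 (-1.49) and for the autophagy receptor Sqstm1 (-1.04). Lipid and lysosome genes with a negative value were Scd2 (-1.80), Lipa (-0.94), Gpnmb (-0.74) and Psap (-0.74).

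The 4 mitochondrial mRNAs mt-Cytb (-0.95), mt-Nd2 (-0.86), mt-Nd5 (-0.79) and mt-Nd6 (-0.88) had negative values, and the rRNAs mt-Rnr1 (2.03) and mt-Rnr2 (1.32) positive ones. Positive values were also found for the hemoglobin scavenger receptor Cd163 (1.56), Cxcl12 (1.45), P4ha2 (1.27), Col3a1 (0.93) and the apoptosis effector Bax (0.64).

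The remaining named genes had negative values: Zfp180 (-4.95), Ass1 (-2.14), Marco (-2.09), Tgfbi (-1.48), Vwf (-1.22), Panx1 (-1.14), Itgax (-1.05), Sgk1 (-0.97), Igf1 (-0.91), C3 (-0.87), Rnf128 (-0.70), C3ar1 (-0.68), Mmp12 (-0.58) and Tnfrsf1b (-0.56). For Vwf and C3 the genotype difference was positive in both states and smaller after stimulation.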

How the results depend on the processing

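Calls after stimulation numbered 860, and 1654 with DESeq2 (943 higher, 711 lower), 502 with only the groups compared (300, 202) and 158 to 505 when 1 stimulated library was left out. With PBS they numbered 271, and 878 with DESeq2, 44 with only the groups compared and 80 to 122 without 1 library. The difference of both effects gave 87 calls, 484 with DESeq2 and 20 to 94 without 1 library. Where 1 library remains in a group, it is assumed to vary like the others. The median over all genes was 0.13 with library size alone, against -0.0045. Same-numbered libraries had deviations correlated at -0.015 to 0.10, so the numbers were not taken as pairs; the replicate block left 672 calls, 623 of them among the 860. Of 208 named genes called after stimulation, 147 kept their direction and call under every alternative that kept all stimulated libraries, 75 under the fits without 1 library too, and none changed sign while called. With 2 libraries a group, changes near 2-fold were recovered incompletely on simulated counts.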

Other observations

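The first 5 genes given here lie outside the lists and were singled out after their values were seen. Igf1, a growth factor made by macrophages, measured 353 and 355 CPM in WT and 178 and 187 CPM in KO after stimulation (log2 -0.95 ± 0.06), and Sgk1, a kinase of ion transport, 867, 842, 426 and 405 CPM (log2 -1.04 ± 0.06). Lgals3, which encodes the lectin galectin-3, measured 669, 741, 385 and 371 CPM (log2 -0.90 ± 0.08). All 3 genes were called in every fit leaving out 1 stimulated library. Lilra5, a leukocyte receptor gene, rose from 0.291 and 0.361 CPM to 1.86 and 2.04 CPM. Capn11, a calpain gene, had 0 counts in WT and 212 in KO after stimulation, at least 65.4-fold higher against a floor of 3 counts over the group, and 0 CPM in WT against 4.65 and 4.77 CPM in KO with PBS. Clec5a, a myeloid receptor gene of the C-type lectin list, measured 51.4, 46.0, 128 and 125 CPM (log2 1.37 ± 0.08).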
